A study of Mus musculus with 9 samples.

Results

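The 40 cell proliferation genes examined here code for the machinery that carries a cell through its division cycle. They were chosen by name, and every probe of the array whose gene name equalled one of the 40 was taken, which gave 65 probes for 40 of the 27962 gene names on the array. The genes were grouped by the stage of the cycle in which they act, as 6 G1 regulators, 14 S phase genes, 2 genes of S to G2 phase (Ccna2 and Mki67) and 18 mitotic genes. Expression was measured in mammary gland number 4 on lactation day 2 (L2), with 1 Agilent whole mouse genome array for each of 4 WT and 5 hNAG-1 dams. All dams had the strain background that the labels spell C57BL/7. The labels give their age only as the day of lactation, and the methods for mammary RNA, to which those for the arrays refer, describe glands of fertility study dams taken after the fourth litter. The hNAG-1 dams carry a transgene for human NAG-1 (GDF15), a secreted member of the TGFβ superfamily, which was built for ubiquitous expression rather than for the gland alone. The methods give 1 transgenic line as the main one, with animals of another line added in some experiments, and do not name the line of the array mice separately. The comparison addressed whether genes of the cell cycle differ in the lactating gland between the genotypes, and whether S phase and mitotic genes differ alike.

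In the cell cycle, D-type cyclins with Cdk4 release E2F transcription factors from the retinoblastoma protein, and E2F with cyclin E then starts S phase. The replication genes act there, loading the MCM helicase onto DNA, making deoxynucleotides and clamping the polymerase. Mitotic genes follow through cyclin B, the Aurora and Polo kinases, the spindle checkpoint and the motors of cytokinesis, and are switched on late, with Foxm1 among their activators. The mammary epithelium divides strongly in pregnancy and continues to divide around parturition, and division declines as milk secretion is established.

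S phase and mitotic genes are known for different promoter elements, so stretches of 250 bases before the start are shown for 3 genes of each stage. The S phase genes were chosen because they hold E2F-type letters and the mitotic genes because they hold the letters of the CHR (cell cycle genes homology region). Sequences are those of RefSeq for the build GRCm38.p6, written 5′ to 3′ along the gene's strand, and end at the last base before the start. Capitals mark E2F-type letters (TTTCCCGC or TTTGGCGC or TTTCGCGC or TTTGCCGC), CHR letters (TTTGAA or TTCGAA) and CCAAT, the box read by the factor NF-Y, on either strand, and matches that overlap run together. For the S phase genes the stretches lie at chr11:98907901-98908150 (+ strand), chr8:75109259-75109508 (+ strand) and chr1:128359706-128359955 (- strand), with E2F-type letters in each and CCAAT in both MCM genes.
Cdc6: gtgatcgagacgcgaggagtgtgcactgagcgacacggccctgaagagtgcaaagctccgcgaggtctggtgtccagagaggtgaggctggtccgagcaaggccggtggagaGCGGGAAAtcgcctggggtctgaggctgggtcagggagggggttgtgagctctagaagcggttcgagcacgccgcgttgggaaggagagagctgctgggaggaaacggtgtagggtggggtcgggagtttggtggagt
Mcm5: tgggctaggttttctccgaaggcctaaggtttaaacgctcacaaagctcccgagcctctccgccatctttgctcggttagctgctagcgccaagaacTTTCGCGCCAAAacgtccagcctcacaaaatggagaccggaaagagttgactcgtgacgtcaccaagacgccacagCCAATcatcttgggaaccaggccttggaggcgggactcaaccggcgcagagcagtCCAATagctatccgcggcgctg
Mcm6: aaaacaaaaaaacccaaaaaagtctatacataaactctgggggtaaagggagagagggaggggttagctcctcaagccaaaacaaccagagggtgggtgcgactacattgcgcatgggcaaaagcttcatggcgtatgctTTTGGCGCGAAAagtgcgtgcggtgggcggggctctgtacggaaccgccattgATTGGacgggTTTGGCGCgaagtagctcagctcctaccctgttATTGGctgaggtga
For the mitotic genes the stretches lie at chr9:70421555-70421804 (- strand), chr4:118437344-118437593 (- strand) and chr19:37376132-37376381 (+ strand), and each holds CHR and CCAAT letters.
Ccnb2: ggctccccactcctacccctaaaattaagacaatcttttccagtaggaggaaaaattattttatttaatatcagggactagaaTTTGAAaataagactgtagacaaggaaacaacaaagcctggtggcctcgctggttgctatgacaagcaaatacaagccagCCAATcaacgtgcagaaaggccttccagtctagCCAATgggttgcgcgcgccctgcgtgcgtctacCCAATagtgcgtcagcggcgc
Cdc20: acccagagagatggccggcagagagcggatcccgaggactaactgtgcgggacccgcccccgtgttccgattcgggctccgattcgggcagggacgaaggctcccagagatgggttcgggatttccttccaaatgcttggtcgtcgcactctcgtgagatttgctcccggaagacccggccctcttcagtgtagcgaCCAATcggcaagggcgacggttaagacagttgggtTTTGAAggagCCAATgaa
Kif11: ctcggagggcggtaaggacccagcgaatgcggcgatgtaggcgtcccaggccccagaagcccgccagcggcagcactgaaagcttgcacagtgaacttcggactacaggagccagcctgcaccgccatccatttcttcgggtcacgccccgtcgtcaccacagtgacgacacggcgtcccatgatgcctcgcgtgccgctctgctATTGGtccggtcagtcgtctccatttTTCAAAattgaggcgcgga

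A RefSeq promoter was matched to 32 of the 40 genes, 13 of S phase and 15 of mitosis among them. Genes with no entry in the table were Ccnd1, Ccnd2, Ccne2, Mcm4, Ccna2, Aurkb, Kif20a and Foxm1. E2F-type letters stood before 4 of 13 S phase genes (Cdc6, Mcm5, Mcm6 and Mcm7) and 0 of 15 mitotic genes, and before 1.86% of all 32851 promoters. CHR letters stood before 6 of 15 mitotic genes (Top2a, Ccnb2, Cdc20, Bub1b, Kif11 and Ect2), 3 of 13 S phase genes (Cdc45l, Mcm2 and Mcm7) and 17.1% of all promoters. All 6 of those mitotic genes and all 3 of those S phase genes also held CCAAT, a pair found together in 6.02% of all promoters. CCAAT, with or without CHR letters, stood before 12 of 15 mitotic genes, 9 of 13 S phase genes and 33.8% of all promoters. These are matches of letters in 1 window and were not tested as binding sites. None of the 3 letter groups stood in the 1 window taken for each of the 3 matched G1 regulators, Ccne1, Cdk4 and E2f1. Other starts of these genes were not searched, and the E2f1 window was not checked to lie outside the gene. So these windows do not show that the promoters of these genes lack such letters.

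**Figure D1:**
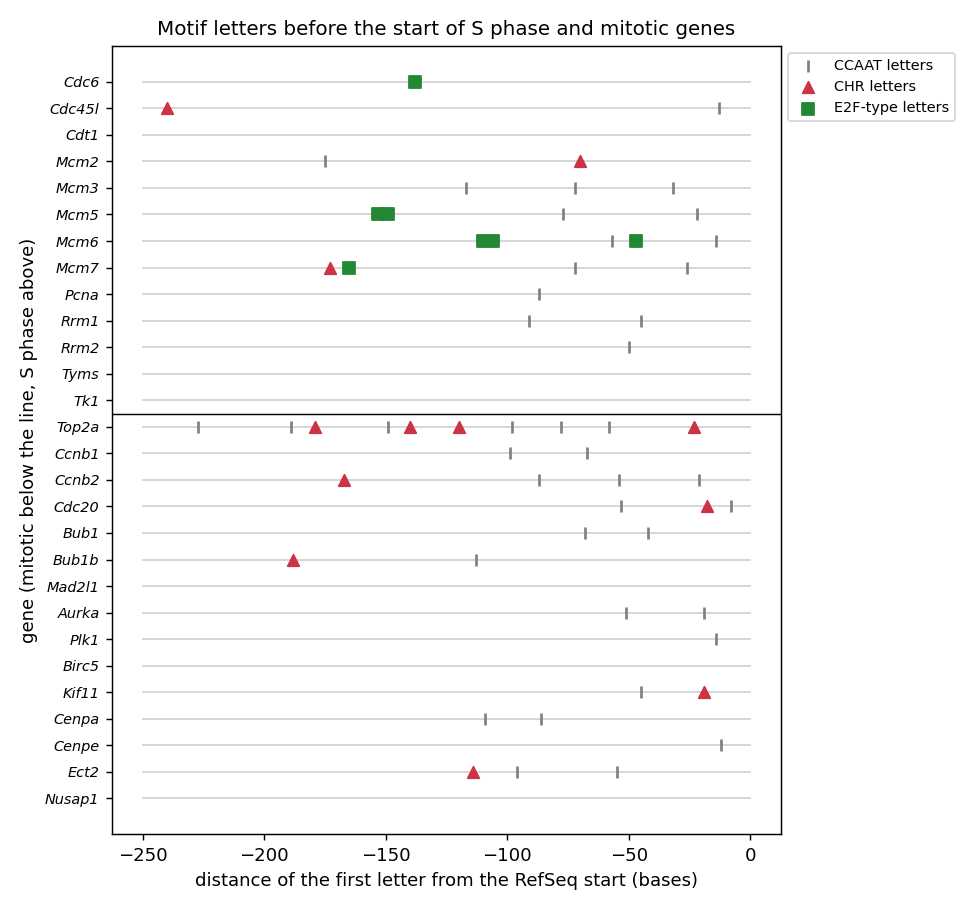
Positions of motif letters in the 250 bases before the RefSeq start of the 13 S phase and 15 mitotic genes matched, with the distance of the first letter from the start on the horizontal axis and 1 gene on each line (first promoter of a gene with several). E2F-type letters (squares) stand before 4 S phase genes and no mitotic gene, and CHR letters (triangles) before 6 mitotic and 3 S phase genes.

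Each array gave 41174 probes after control features were left out. The share of probes well above background ranged from 59.1% (hNAG-1 4) to 72.9% (hNAG-1 5) in hNAG-1 and from 68.5% (WT 1) to 75.6% (WT 2) in WT. The brightest probe of all 40 genes was well above background on all 9 arrays, and no member probe was saturated. WT 1 was hybridized on slide 1, hNAG-1 1 to hNAG-1 4 on slide 2, and WT 2 to WT 4 with hNAG-1 5 on slide 3, so slide and genotype can be separated only on slide 3, where hNAG-1 is 1 mouse. The arrays are of mouse sequence, and the human transgene was not checked here. Values below are scaled intensities, which are the deposited intensities brought to 1 common 75th percentile, and the level of a gene is that of its brightest probe. Intensities of different probes are not comparable with each other, and a gene is compared between mice only by the same probe. The sums given below for marker lists follow the brightest probes of each list and are likewise compared only between mice.

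No cell proliferation gene differed between the genotypes after adjustment, and none reached an unadjusted p under 0.05 at its brightest probe. All 18 mitotic genes had lower fitted levels in hNAG-1, with a median log2 fold change of -0.57 that stayed below 0 under every scaling of the arrays (from -0.72 to -0.36) but turned to 1.22 with slide as a block. The 14 S phase genes had a median of 0.02, from -0.13 to 0.24 between scalings, and the 6 G1 regulators one of 0.19, from 0.04 to 0.40. The median over all 41174 probes was -0.01. Of the 65 probes, 2 had an unadjusted p under 0.05, both lower in hNAG-1, beside 2315 of 41174 probes in either direction (5.62%). With limma and Benjamini-Hochberg adjustment over all probes, 0 of the 65 probes passed, against 0.00243% of all probes, and the test of the methods, without moderation, gave 0 of 65 at an unadjusted p under 0.05. In the limma fit the lowest adjusted p of the brightest probes was 0.65. The WT and hNAG-1 mice overlapped in each of the 40 genes, and did not overlap in 1.38% of all probes. In RNA of whole tissue, the number of dividing cells and the RNA per dividing cell cannot be told apart.

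**Figure D2:**
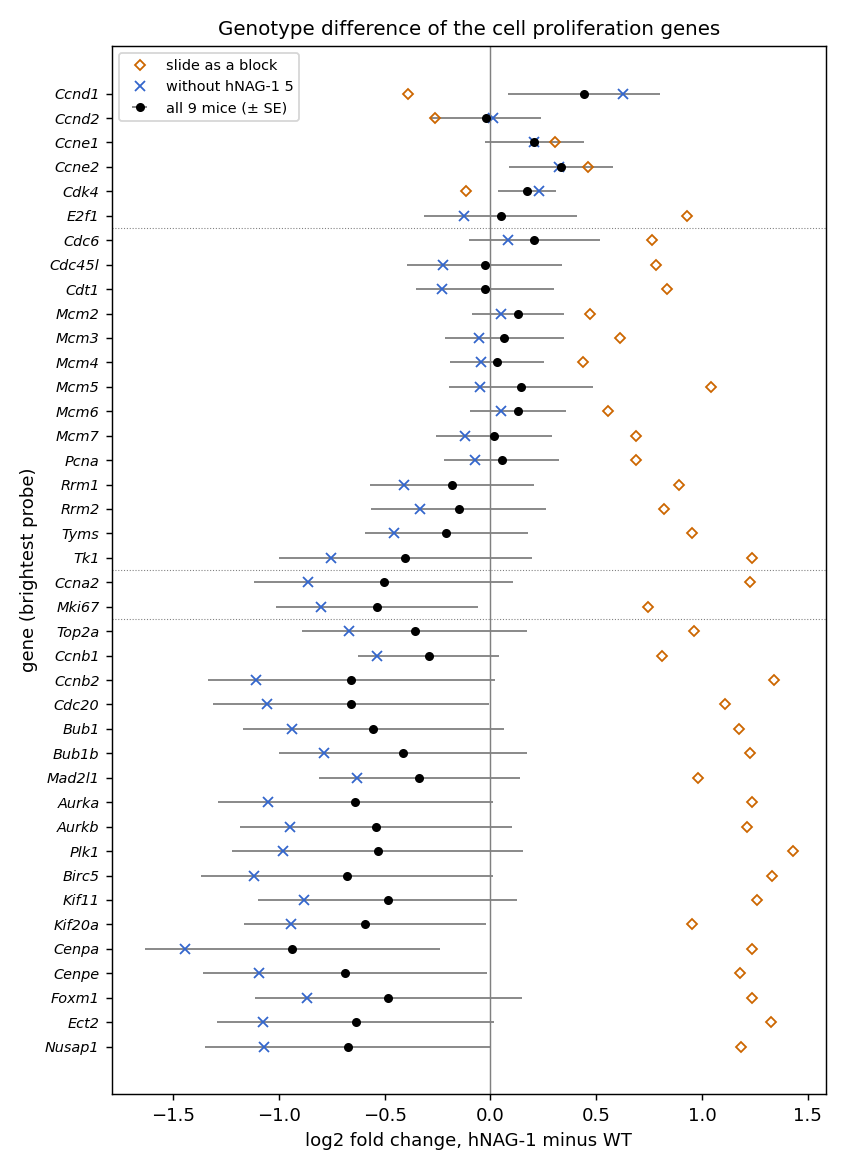
Log2 fold change of hNAG-1 against WT (horizontal axis) for the brightest probe of each of the 40 genes, ordered by stage, as black points with SE bars from limma over all 9 mice. Diamonds give the fit with slide as a block and crosses the fit without hNAG-1 5. All mitotic genes lie below 0 with all mice and above 0 with slide as a block.

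Among the mitotic genes, Ccnb2, which codes for cyclin B2, an activator of the mitotic kinase Cdk1, had a scaled intensity of 13248, 13760, 6304 and 5573 in WT 1 to WT 4, and of 4573, 1504, 9758, 4404 and 19858 in hNAG-1 1 to hNAG-1 5. The highest mouse and the lowest mouse were both hNAG-1, with hNAG-1 5 above every WT mouse, hNAG-1 2 far below every other mouse, and hNAG-1 3 between WT 1 and WT 3. The means were 9721 ± 4383 for WT (SD, n = 4) against 8019 ± 7256 for hNAG-1 (SD, n = 5), and the log2 fold change was -0.66 ± 0.68 (SE), with limma adjusted p = 0.74. Birc5, the survivin gene, whose product works in the chromosomal passenger complex, had a scaled intensity of 31088, 26120, 13796 and 10490 in WT 1 to WT 4, and of 11998, 2818, 18762, 8334 and 39183 in hNAG-1 1 to hNAG-1 5. The mice stood in nearly the same order, and the log2 fold change was -0.68 ± 0.69 (SE).

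Cdc20, which activates the anaphase-promoting complex, had a scaled intensity of 13187, 12531, 7258 and 6086 in WT 1 to WT 4, and of 6175, 1446, 10582, 4123 and 17700 in hNAG-1 1 to hNAG-1 5. Its log2 fold change was -0.66 ± 0.65 (SE), and again hNAG-1 5 was the highest mouse and hNAG-1 2 the lowest. Plk1, the Polo kinase of mitotic entry and spindle assembly, had a scaled intensity of 5690, 5849, 2932 and 2518 in WT 1 to WT 4, and of 2396, 707, 5332, 1794 and 9455 in hNAG-1 1 to hNAG-1 5. The log2 fold change of Plk1 was -0.53 ± 0.69 (SE), and its highest mouse was 13.4-fold above its lowest. Cenpa, the histone variant that marks the centromere, had the lowest log2 fold change of the 40 genes, -0.94 ± 0.70 (SE) with limma adjusted p = 0.65. It had a scaled intensity of 1157, 1334, 636 and 535 in WT 1 to WT 4, and of 333, 118, 719, 339.8 and 1809 in hNAG-1 1 to hNAG-1 5, so that hNAG-1 5 stood above all WT mice and hNAG-1 1, 2 and 4 below all of them.

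The other mitotic genes had fitted differences of the same sign. The spindle checkpoint genes Bub1, Bub1b and Mad2l1 had log2 fold changes of -0.55, -0.41 and -0.34. Aurka, the kinase of the spindle poles, had -0.64, and Aurkb, the kinase of the passenger complex, had -0.54. The kinesin motors Kif11, which separates the spindle poles, and Kif20a, which works in cytokinesis, had -0.49 and -0.59. Cenpe, the kinetochore motor, had -0.69, Nusap1, a spindle microtubule protein, had -0.67, and Ect2, the exchange factor that starts the cleavage furrow, had -0.64. Foxm1, the transcription factor of the late cycle, had -0.48, and Top2a, the topoisomerase that untangles sister chromatids, had -0.36. Ccnb1, cyclin B1, had the log2 fold change nearest to 0 of the 18 at its brightest probe, -0.29 ± 0.33 (SE), while its other 2 probes, also well above background on all arrays, had -0.61 and -0.67. The SE had a median of 0.65 over the 18 genes, larger than the median log2 fold change, and the unadjusted p was at least 0.21.

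The 2 genes of S to G2 phase also had lower fitted levels in hNAG-1. Mki67, which codes for the proliferation antigen Ki-67, had a scaled intensity of 55832, 36735, 34518 and 21873 in WT 1 to WT 4, and of 34857, 9036, 26843, 19829 and 50660 in hNAG-1 1 to hNAG-1 5. WT 1 was the highest and hNAG-1 2 the lowest, with hNAG-1 5 above WT 2, and the log2 fold change was -0.54 ± 0.48 (SE) with limma adjusted p = 0.70. A second Mki67 probe had -0.45 ± 0.45 (SE). Ccna2, cyclin A2, had a scaled intensity of 11081, 7844, 4385 and 3417 in WT 1 to WT 4, and of 4758, 1254, 6219, 3196 and 11471 in hNAG-1 1 to hNAG-1 5. Its log2 fold change was -0.50 ± 0.61 (SE), and hNAG-1 2 and hNAG-1 4 stood below all WT mice and hNAG-1 5 above all of them.

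**Figure D3:**
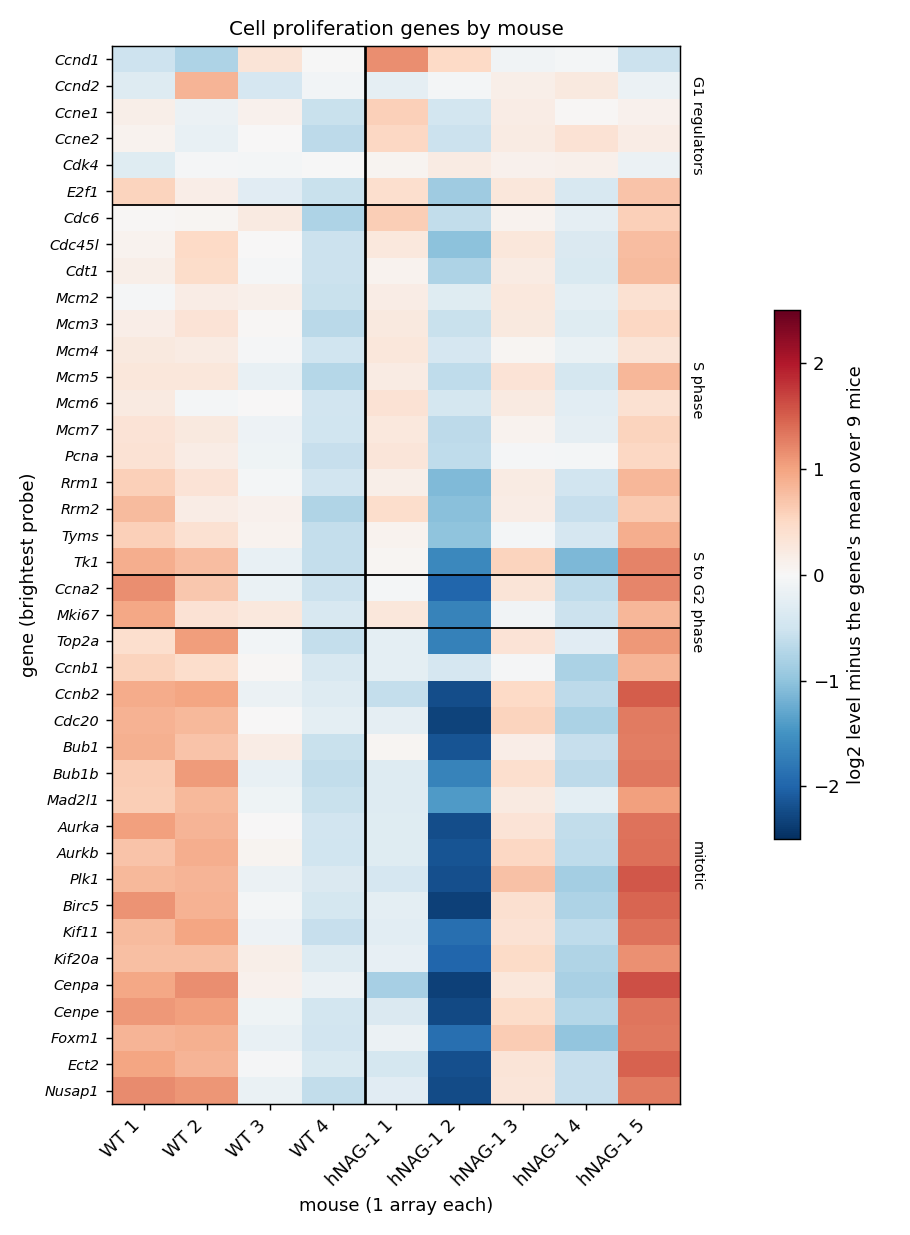
Level of the 40 genes (rows, by stage) in the 9 mice (columns), as log2 scaled intensity minus the gene's mean over the mice. Apart from Ccnb1, whose brightest probe, plotted here, is paler and lowest in hNAG-1 4, the mitotic rows are dark blue in hNAG-1 2 and red in hNAG-1 5, WT 1 and WT 2, the S phase rows show it more faintly, and the G1 rows other than E2f1 do not.

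S phase genes had log2 fold changes on both sides of 0. Pcna, the sliding clamp of the replicative polymerases, had a scaled intensity of 27057, 23733, 19565 and 14090 in WT 1 to WT 4, and of 25807, 13569, 20401, 20330 and 30135 in hNAG-1 1 to hNAG-1 5. The means were 21111 ± 5595 for WT (SD, n = 4) against 22048 ± 6267 for hNAG-1 (SD, n = 5), and the log2 fold change was 0.05 ± 0.27 (SE). Mcm5, a subunit of the replicative helicase whose promoter stretch is printed above, had a scaled intensity of 5073, 5084, 3638 and 2539 in WT 1 to WT 4, and of 4813, 2662, 5285, 3058 and 7426 in hNAG-1 1 to hNAG-1 5. The highest mouse was hNAG-1 5 and the lowest WT 4, with hNAG-1 2 beside it, and the log2 fold change was 0.14 ± 0.34 (SE). The other helicase subunits Mcm2, Mcm3, Mcm4, Mcm6 and Mcm7 had 0.13, 0.07, 0.03, 0.13 and 0.02 at their brightest probes.

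The genes that load the helicase were Cdc6, with a log2 fold change of 0.21, and Cdt1, with -0.03, and Cdc45l, which travels with it, had -0.03. Of the enzymes that make deoxynucleotides, the ribonucleotide reductase subunits Rrm1 and Rrm2 had -0.18 and -0.15. Tyms, thymidylate synthase, had -0.21 at its brightest probe. Tk1, the thymidine kinase of dividing cells, had the lowest value of the S phase genes, -0.40 ± 0.60 (SE), with a scaled intensity of 4444, 4046, 2100 and 1569 in WT 1 to WT 4, and of 2454, 779.6, 3516, 1085 and 5589 in hNAG-1 1 to hNAG-1 5. Tk1 was also the S phase gene with the widest range between mice, 7.17-fold, with hNAG-1 5 highest and hNAG-1 2 lowest as in the mitotic genes. Of the 14 S phase genes 8 had fitted levels above WT and 6 below, a split that moved with the scaling, to 13 above with each array scaled to its median, 5 above with quantile normalization and 1 above with no scaling, and the lowest unadjusted p was 0.52.

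In the G1 regulators the mice stood in other orders. Ccnd1, cyclin D1, had a scaled intensity of 1613, 1349, 2858 and 2274 in WT 1 to WT 4, and of 5129, 3229, 2168, 2237 and 1576 in hNAG-1 1 to hNAG-1 5. The highest mouse was hNAG-1 1, and hNAG-1 5, highest in the mitotic genes, was close to WT 1 and WT 2 at the low end. The log2 fold change was 0.44 ± 0.36 (SE). Ccnd2, cyclin D2, had a scaled intensity of 2484, 5600, 2308 and 2926 in WT 1 to WT 4, and of 2626, 2979, 3397, 3642 and 2797 in hNAG-1 1 to hNAG-1 5, with WT 2 alone standing above the rest. Cdk4, the kinase of the D-type cyclins, varied least of the 40 genes, 1.43-fold between the highest and the lowest mouse, with a log2 fold change of 0.17 ± 0.14 (SE). The cyclin E genes Ccne1 and Ccne2 had 0.21 and 0.33, and E2f1, the transcription factor that opens S phase, had 0.05. E2f1 was the 1 G1 regulator whose mice ran, as in the mitotic genes, from hNAG-1 2 at 303 to hNAG-1 5 at 918.

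Mice of 1 genotype differed widely in these genes. Of the 18 mitotic genes, 18 were highest in hNAG-1 5 and 17 lowest in hNAG-1 2, the exception being Ccnb1, lowest in hNAG-1 4 at its brightest probe but in hNAG-1 2 at its other 2 probes. Of the 14 S phase genes, 12 were highest in hNAG-1 5 and 8 lowest in hNAG-1 2. Both held for 26 of the 40 genes, and for 6.67% of the 26765 probes of the array detected above background throughout at least 1 genotype. The highest mouse stood a median of 11.6-fold above the lowest in the mitotic genes, 2.76-fold in the S phase genes and 2.35-fold in the G1 regulators, against 1.94-fold over those 26765 probes. Within WT alone the median range of the mitotic genes was 2.61-fold, and within hNAG-1 it was 11.6-fold. Over the same 26765 probes it was 1.51-fold in WT and 1.66-fold in hNAG-1. The wider range in hNAG-1 rests on hNAG-1 2 and hNAG-1 5, and a range grows with the number of mice.

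For each mouse, the log2 levels of a stage were averaged after each gene was set to its mean over the 9 mice. The mitotic average was 0.84, 0.90, -0.04 and -0.45 in WT 1 to WT 4 and -0.32, -1.98, 0.39, -0.66 and 1.31 in hNAG-1 1 to hNAG-1 5. The S phase average was 0.34, 0.29, -0.01 and -0.59 in WT 1 to WT 4 and 0.25, -0.77, 0.19, -0.38 and 0.67 in hNAG-1 1 to hNAG-1 5. The order of the mice was similar in both, with hNAG-1 1 as the clearest exception, above 0 in S phase genes and below 0 in mitotic genes. The S phase average minus the mitotic average was -0.50, -0.61, 0.03 and -0.14 in WT 1 to WT 4 and 0.57, 1.21, -0.20, 0.29 and -0.65 in hNAG-1 1 to hNAG-1 5. It was above 0 in WT 3 and in hNAG-1 1, 2 and 4 and below 0 in the other mice, so the genotypes overlapped. The median log2 fold change of S phase genes minus that of mitotic genes was 0.60, and it turned to -0.44 with slide as a block and was 0.35 without hNAG-1 2. These averages are described without a test, and the genes of 1 mouse are not replicates.

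**Figure D4:**
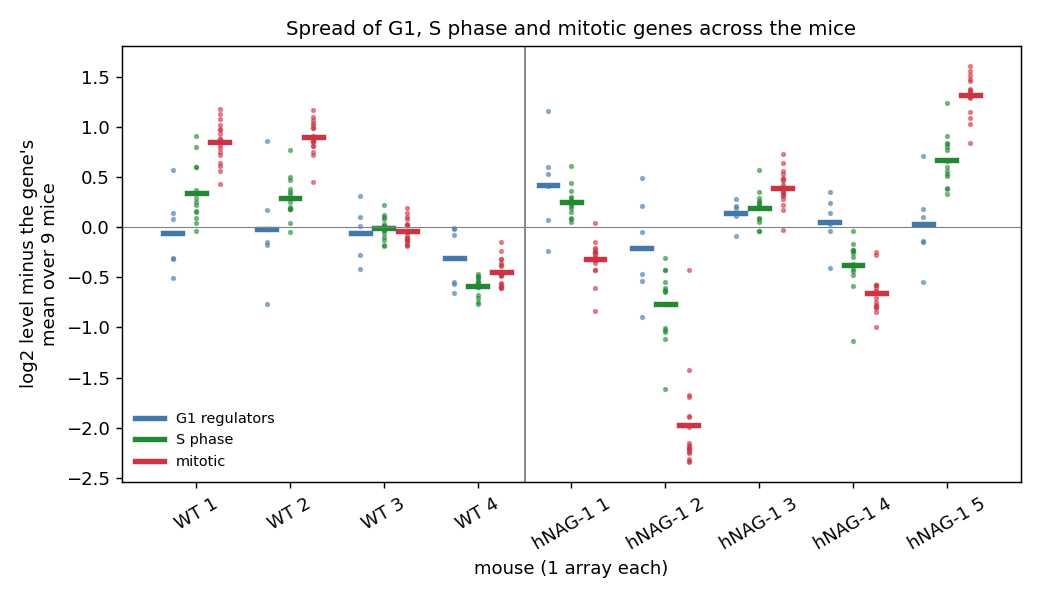
Level of single genes (points) and their average (bars) in each mouse for G1 regulators, S phase genes and mitotic genes, as log2 scaled intensity minus the gene's mean over the 9 mice. The mitotic average runs from -1.98 in hNAG-1 2 to 1.31 in hNAG-1 5, and the S phase average from -0.77 to 0.67 in the same mice.

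The size and the sign of the fitted genotype difference changed with the slide and with single mice. With slide as a block, which compares hNAG-1 5 with WT 2 to WT 4, all 18 mitotic genes had higher fitted levels in hNAG-1, from 0.81 to 1.43 with a median of 1.22, and so had all 14 S phase genes, with a median of 0.77. The median over all probes was 0.19 in that fit. None of the 65 probes had an unadjusted p under 0.05 there, beside 6.87% of all probes called higher. Without hNAG-1 5 the mitotic median was -0.96 and the S phase median -0.10. In that fit 6 of the 65 probes had an unadjusted p under 0.05, all lower in hNAG-1 (the brightest Cenpa probe at -1.44 and dim further probes of Tyms, Mcm4, Kif11, Ect2 and Nusap1), beside 13.1% of all probes called lower, and 0 passed after adjustment. The mice that remain share no slide between genotypes, so that slide and genotype cannot be told apart in it. Without hNAG-1 2, the lowest mouse, the mitotic median was -0.15 and the S phase median 0.20, with 13 of the 14 S phase genes higher in hNAG-1. Without WT 4 the S phase median was -0.15, with all 14 genes lower, and the mitotic median -0.83. The G1 regulators had a median of 0.09 with slide as a block, with Ccnd1 at -0.39, Ccnd2 at -0.26, Cdk4 at -0.12, Ccne1 at 0.30, Ccne2 at 0.46 and E2f1 at 0.93.

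The 2 probes with an unadjusted p under 0.05 were dim further probes of S phase genes. The Tyms probe A_51_P375761, at chr5:29094245-29094304 of build mm7, had a scaled intensity of 144, 98.4, 165 and 137 in WT 1 to WT 4, and of 91.7, 31.1, 43.8, 53.5 and 143 in hNAG-1 1 to hNAG-1 5. WT 1, WT 3, WT 4 and hNAG-1 5 stood together at the top, and hNAG-1 2, 3 and 4 at the bottom. The log2 fold change was -1.10 ± 0.42 (SE), with limma adjusted p = 0.65. The brightest Tyms probe had -0.21 ± 0.38 (SE) and a further one, A_52_P292651, had -0.20 ± 0.40 (SE). The interval that the files give for A_52_P292651, chr5:29093997-29094890, is longer than a probe and encloses that of A_51_P375761. The Mcm4 probe A_52_P231545, designed on a cDNA clone, was well above background on all 4 WT arrays and 3 of the 5 hNAG-1 arrays and had a scaled intensity of 48.7, 47.9, 44.4 and 69.1 in WT 1 to WT 4, and of 29.0, 6.60, 31.2, 8.0 and 57.8 in hNAG-1 1 to hNAG-1 5. It had a log2 fold change of -1.41 ± 0.62 (SE) with limma adjusted p = 0.65, against 0.03 ± 0.22 (SE) for the brightest Mcm4 probe. With slide as a block the Tyms and Mcm4 probes had 0.13 and 0.13, and with normexp background correction -0.56 and -0.23.

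Of the 40 genes 19 had more than 1 probe, and in 5 of them the fitted values of the probes differed in sign, in 3 of these through a probe at or near background. In Mcm4 the second probe is the one above. In Ccnd2 the brightest probe had -0.02 and the others 0.12 and 0.20, all within 1 SE of 0. The Rrm1 probe A_52_P606866 and the Top2a probe A_52_P156502 were not well above background on any array, and the Cenpa probe A_52_P328630 was so on 2, WT 2 at 19.1 and hNAG-1 1 at 32.7. No fold is given for these probes. The third Top2a probe, A_52_P415299, had -0.54, near the brightest one.

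Genes of the cycle outside the 40 were examined in the same fit. Of 31 other G2 and mitotic genes 30 were measured, and all 30 had lower fitted levels in hNAG-1, with a median log2 fold change of -0.49 and 0 at an unadjusted p under 0.05, though 27 were lower when each array was scaled to its median. They ran from -0.82 for Ndc80, a kinetochore gene, to -0.02 for Bub3, a checkpoint gene. Cdk1, the kinase partner of the B-type cyclins and named here for that role, had a scaled intensity of 4112, 4818, 2509 and 1828 in WT 1 to WT 4, and of 2065, 756, 3478, 1637 and 6777 in hNAG-1 1 to hNAG-1 5. Its mice stood in the order of Ccnb2 at both ends, and its log2 fold change was -0.44 ± 0.59 (SE). Of these 30 genes, 27 were highest in hNAG-1 5 and lowest in hNAG-1 2. With slide as a block their median was 1.18. It was -0.10 without hNAG-1 2, with 24 of 30 lower, and -0.88 without hNAG-1 5.

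Of 28 other G1 and S phase genes 27 were measured, 13 with higher and 14 with lower fitted levels in hNAG-1, with a median of -0.01 that moved to 0.21 under median scaling of the arrays and to -0.16 without scaling. They ran from -0.29 for Myc, a growth-promoting transcription factor, to 0.29 for Fen1, the flap endonuclease of lagging-strand synthesis, and 0 had an unadjusted p under 0.05. Of the 17 cell cycle brakes, 8 were higher and 9 lower, with a median of -0.01 and 0 at an unadjusted p under 0.05. Btg1, an antiproliferative gene, was the lowest with -0.58 ± 0.34 (SE) and limma adjusted p = 0.65, and Cdkn1c, the Cdk inhibitor also called Kip2, the highest with 0.28 ± 0.20 (SE). Btg1 had a scaled intensity of 19893, 28058, 7897 and 11176 in WT 1 to WT 4, and of 9455, 8824, 9914, 12712 and 9203 in hNAG-1 1 to hNAG-1 5, with WT 1 and WT 2 above all other mice. The brakes varied a median of 1.93-fold between the highest and the lowest mouse, close to the 1.94-fold of all well measured probes.

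Markers of the cells that the gland could hold were set beside these values. The tissue label was borne out by the luminal epithelial and milk protein genes, of which 9 of 10 were measured and all 9 passed background on all 9 arrays, with a summed scaled intensity of 898863 to 1641885 in WT and 1190364 to 1683065 in hNAG-1. Their log2 fold changes ran from 0.03 for Cdh1 to 0.35 for Lalba. Their average in hNAG-1 2, lowest in the mitotic genes, was 0.08 and in hNAG-1 5, highest in them, -0.0023. The 14 lymphocyte markers, all measured and 11 of them above background in all mice, summed to 2404 to 77720 in WT and 1834 to 11357 in hNAG-1, and their average was 0.89, 3.19, -0.45 and -0.82 in WT 1 to WT 4 and -0.71, -1.40, -1.16, 0.72 and -0.26 in hNAG-1 1 to hNAG-1 5. WT 2 was the highest, followed by WT 1 and hNAG-1 4. Of these, WT 1 and WT 2 were high in mitotic genes and hNAG-1 4 low, and hNAG-1 5 and hNAG-1 3, high in mitotic genes, were below 0 in lymphocyte markers. Of the 14 lymphocyte markers Cr2 and Cd2 had an unadjusted p under 0.05, beside the 5.62% of all probes, with log2 fold changes of -0.75 and -1.50, and the list ran from -1.95 for Ccr7 to -0.17 for Cd3e with a median of -1.32. With slide as a block 0 lymphocyte markers had such a p, and the median was -0.92.

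Of 6 germinal centre markers, 3 were above background in all mice. Rgs13, a regulator of G protein signalling, was well above background in all WT mice and in 3 hNAG-1 mice. It had a scaled intensity of 126, 111, 122 and 95.1 in WT 1 to WT 4, and of 43.3, 12.5, 33.4, 8.39 and 154 in hNAG-1 1 to hNAG-1 5, and its highest mouse was hNAG-1 5, as in the mitotic genes. Of the 6 markers, 2 had an unadjusted p under 0.05, both lower in hNAG-1, Rgs13 among them, beside the 5.62% of all probes, and 0 with slide as a block. The log2 fold change of Rgs13 was -1.92 ± 0.74 (SE), with 2 of the 5 hNAG-1 mice not well above background, and it was -0.57 with normexp background correction and 0.50 with slide as a block. The list had a median of -0.95 (-0.15 with slide as a block, 4 of 6 lower), with 5 of 6 lower in hNAG-1 and 0.20 for S1pr2, the highest, and it summed to 3375 to 5814 in WT and 2868 to 3848 in hNAG-1. Its average was 0.70, 1.14, 0.16 and 0.03 in WT 1 to WT 4 and -0.15, -1.01, -0.87, -0.36 and 0.35 in hNAG-1 1 to hNAG-1 5, so that WT 1, WT 2 and hNAG-1 5 were the 3 highest mice and hNAG-1 2 the lowest, as in the mitotic average, whereas hNAG-1 3, above 0 in the mitotic average, was the second lowest. The 8 adipocyte markers summed to 417219 to 787674 in WT and 581051 to 719064 in hNAG-1, with WT 1 lowest. Their log2 fold changes ran from 0.03 for Fabp4 to 1.00 for Retn. The 6 macrophage markers, with log2 fold changes from -0.31 for Lyz1 to 0.22 for Emr1, summed to 76571 to 157155 in WT and 66428 to 217199 in hNAG-1, with hNAG-1 4 highest. Summed values were 77224 to 162402 in WT and 139911 to 178181 in hNAG-1 for the 6 myoepithelial markers, 9251 to 11495 in WT and 9493 to 13839 in hNAG-1 for the 6 endothelial ones and 99430 to 164762 in WT and 113649 to 198977 in hNAG-1 for the 6 fibroblast ones. Log2 fold changes ran from 0.26 for Cnn1 to 0.48 for Myh11 in the myoepithelial list, from -0.10 for Cldn5 to 0.30 for Tek in the endothelial one and from -0.04 for Lum to 0.34 for Col3a1 in the fibroblast one. No marker in these lists was at 0, and Myh11 was the only myoepithelial one with an unadjusted p under 0.05, with 0 when slide was a block. The share of probes well above background, 59.7% in hNAG-1 2 and 72.9% in hNAG-1 5, moved with the mitotic genes in those mice. In hNAG-1 4, with the lowest share at 59.1%, the mitotic average was -0.66, the nearest to hNAG-1 2 at -1.98. In WT 2, with the highest share at 75.6%, it was 0.90, the nearest to hNAG-1 5 at 1.31. The other mice did not keep this order, since WT 4 had 70.9% and -0.45 and WT 1 had 68.5% and 0.84. The part of these cell types and of this share in the mitotic levels was not tested.

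**Figure D5:**
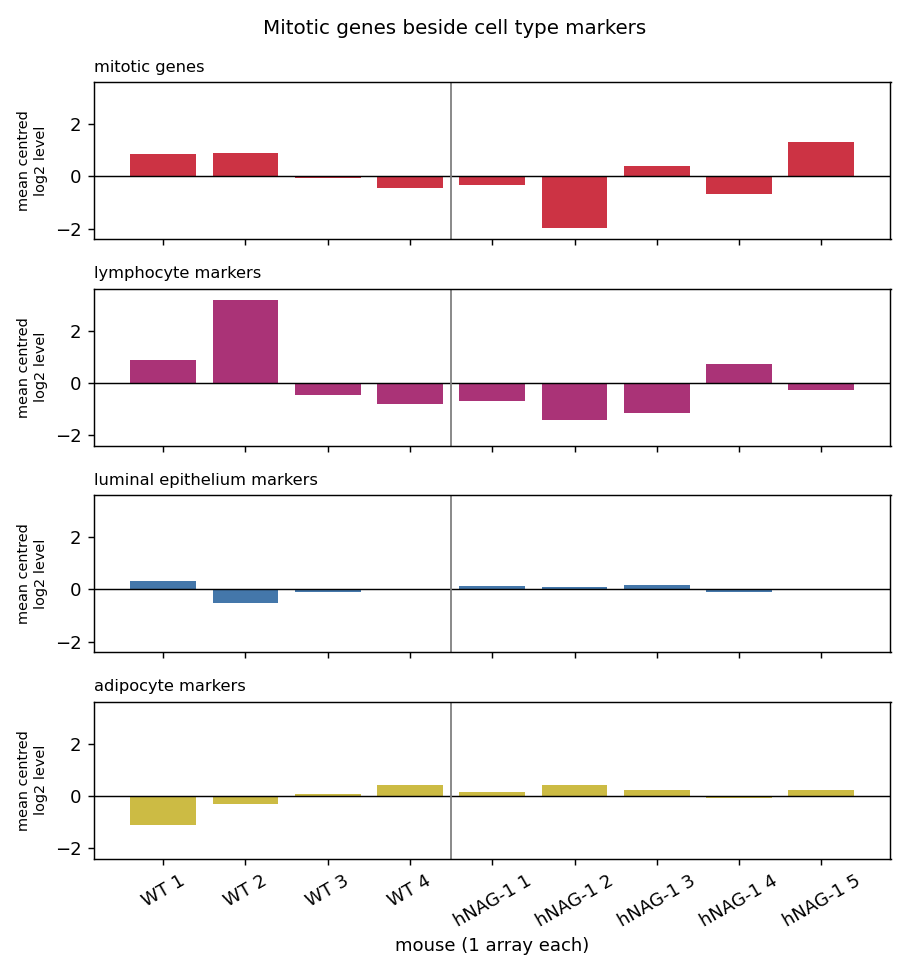
Average log2 level of the 18 mitotic genes and of lymphocyte, luminal epithelial and adipocyte markers in each of the 9 mice, each gene set to its mean over the mice. Lymphocyte markers peak in WT 2 at 3.19, whereas the mitotic genes peak in hNAG-1 5, where the lymphocyte average is -0.26.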

How the data were processed

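Arrays of 4 WT and 5 hNAG-1 dams, 1 single-color array for each mouse, measured RNA of mammary gland number 4 on L2. The authors deposited the Agilent Feature Extraction output (version 9.5 per the labels), in which the intensity of a feature is background-subtracted but not scaled between arrays. The deposited series table held the same intensity values.

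Control features were left out, features of 1 probe were averaged, and arrays were scaled by their 75th percentile and put on a log2 scale. Genotypes were compared over 41174 probes with limma version 3.58.1 (lmFit, eBayes, two-sided, no covariates) in R version 4.3.3, with Benjamini-Hochberg adjustment, after a check on simulated data. The number of arrays limits the precision. Gene names and build mm7 coordinates are those of the array files, the exon or intron of a probe was not looked up, and promoters came from a RefSeq table of GRCm38.p6.

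All 40 genes are named by their brightest probe, with every probe where probes differ in sign or 1 had an unadjusted p under 0.05, and of the other cell cycle lists any gene with such a p and the highest and lowest gene. Of the marker lists, genes at the ends of the range or near background were named, and, after their values were seen, those with an unadjusted p under 0.05, other than 1 marker gene whose values are not reported here. The genes, stages and lists were chosen with earlier results of these data known. The alternatives concerned the background (normexp with an offset of 50), the scaling (quantile, median or none), dim values (a floor of 20, or a filter), flagged features, the test (the methods' ANOVA, or eBayes with trend and robust options), weights for arrays, the slide (fixed block, random block, or only slide 3), a replicate block, leaving out each mouse in turn, the series table, the mean over a gene's probes and another assignment of stages. No list was given a p, and the genes of 1 mouse were not treated as replicates.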

Additional observations from a re-analysis of the deposited data

Results flagged for a closer look

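Within a genotype, 90 groups of values (40 genes and 5 averages in each genotype) were searched for a mouse whose gap to the next mouse was large against the range of its group (Dixon's test at the 95% level), and chance alone marks about 1 in 20 groups. There were 2 such cases, both in WT. Cdk4 was lowest in WT 1, with a gap of 0.831 of the range, at a log2 scaled intensity of 10.0 against 10.2 in the nearest WT mouse. The average of the G1 regulators was lowest in WT 4, with a gap of 0.860 of the range, at -0.31 against -0.06. No mitotic gene was marked in either genotype, and no cause was tested.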

How the results depend on the processing

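No member probe passed at an adjusted p under 0.05 in any alternative. The number of the 65 probes with an unadjusted p under 0.05 was 2, and it was 1 with normexp and with slide as a random block, 0 with the methods' test and with slide as a fixed block, 5 with the replicate block, and 0 to 6 when 1 mouse was left out (6 without hNAG-1 5). On slide 3 alone it was 2, with other probes (of Kif11 and Nusap1, both higher in hNAG-1 5). Over all probes the count was 2315, and it was 1061 with normexp, 3608 with median scaling, 6264 with array weights, 1499 with slide as a random block, 3700 on slide 3 alone, 5407 with the replicate block, and 1163 to 5909 when 1 mouse was left out. After adjustment it was 1, and it was 0 with normexp, quantile, median and no scaling, array weights, eBayes with trend and robust options, the methods' test, slide 3 alone and the replicate block, 137 with slide as a fixed block, and 0 to 215 when 1 mouse was left out.

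With slide as a fixed block and on slide 3 alone, which give the same medians, the log2 medians were 0.95 over all 40 genes, 0.77 in S phase genes, 1.22 in mitotic genes, 0.30 in brakes, 0.59 in other G1 and S phase genes and 1.18 in other G2 and mitotic genes, and S phase minus mitotic was -0.44. Median scaling moved the median of all probes from -0.01 to 0.20, that of the G1 regulators to 0.40 and that of the brakes to 0.20, so relative to all probes these moved little. No scaling moved the median of all probes to -0.16. The fitted sign turned for 28 of the 40 genes with slide as a fixed block and on slide 3 alone, for 8 or fewer in the other alternatives that kept all mice or used the replicate block, and for up to 9 when 1 mouse was left out, and none of these genes passed after adjustment. The other medians moved by less than the spread between mice.

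The replicate numbers are not stated to pair the mice. Arrays with the same number had deviations correlated at 0.28, -0.20, -0.14 and -0.31, and 1 of the 4 numbers correlated best with its own. These few values cannot settle whether the mice were paired. The replicate block leaves out hNAG-1 5, which has no partner, and its mitotic median was -0.96. With 9 arrays, fold changes of the mitotic genes carried an SE of about 0.65, so differences of that size were not detectable. Leaving out hNAG-1 5 or hNAG-1 2 moved their median to -0.96 or -0.15.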

Other observations

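A few genes outside the 40, chosen after their values were seen, stood apart from their lists. Pttg1, which codes for securin, the inhibitor of sister chromatid separation, had a scaled intensity of 8359, 7288, 7387 and 7702 in WT 1 to WT 4, and of 6571, 6587, 6863, 7669 and 7726 in hNAG-1 1 to hNAG-1 5. Its highest mouse was 1.27-fold above its lowest, against a median of 9.47-fold over the 30 other G2 and mitotic genes. Among the cell cycle brakes, Cdkn2d, an inhibitor of the Cdk4 and Cdk6 kinases, had a scaled intensity of 5629, 5626, 3318 and 2451 in WT 1 to WT 4, and of 2936, 1184, 3610, 3011 and 6007 in hNAG-1 1 to hNAG-1 5. Its highest mouse was hNAG-1 5 and its lowest hNAG-1 2, as in the mitotic genes, and its log2 fold change was -0.44 ± 0.45 (SE).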
